A study of Homo sapiens with 6 samples.

Results

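Transcripts of the SLC25 mitochondrial carriers were measured in 5637, a human bladder cancer cell line, 48 h after transfection with a MAT1A plasmid or with an empty vector. The family was taken as every symbol in the table that consists of SLC25A and a number, which gave 39 of 13271 listed genes. SLC25A26, the carrier that brings S-adenosylmethionine into mitochondria, was among them. All cells were grown in the same DMEM/F-12 medium with bovine serum and antibiotics and received Lipofectamine 3000 at about 50% confluency. There were 3 libraries with the MAT1A plasmid and 3 with the empty vector (control). Both groups come from a single transfected line. No label states that the replicates were cultured separately, so the p-values reflect spread among 6 libraries that could be partly technical.

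SLC25 carriers sit in the inner membrane of mitochondria, with a few in other organelles, and exchange metabolites, nucleotides, amino acids, cofactors and ions between the matrix and the cytosol. They are made in the cytosol and reach the inner membrane through the TOM complex, small chaperones of the intermembrane space and the TIM22 complex. S-adenosylmethionine, the product of the enzymes encoded by MAT1A and MAT2A, is made in the cytosol. Mitochondria take it up through SLC25A26 in exchange for S-adenosylhomocysteine, and use it to methylate RNA and proteins and to make ubiquinone and lipoate.

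The values are scaled reads, that is, reads of a gene divided by a scaled library size in the manner of counts per M reads. The 6 libraries held 18.7, 19.8 and 21.6 M reads with the MAT1A plasmid and 17.4, 19.8 and 20.7 M in control. MAT1A itself averaged 1852 ± 58.0 scaled reads with its plasmid and 1.96 ± 2.27 in control (SD, n = 3 each). Urothelial and epithelial markers (14 of 16 listed) summed to between 12397 and 13607 scaled reads with the MAT1A plasmid and between 11657 and 11944 in control. Skeletal muscle markers were present in every library (25 of 27 listed). They summed to 116, 60.0 and 55.6 scaled reads in MAT1A libraries 1, 2 and 3 and to 588, 185 and 118 in control libraries 1, 2 and 3. Fibroblast markers (5 of 10 listed) summed to between 176 and 188 with the MAT1A plasmid and between 203 and 320 in control, while 1 of 10 immune and 1 of 7 endothelial markers were listed, at no more than 1.66 and 1.13 scaled reads. The samples were cultures of 1 cell line, and these sums do not show that muscle or fibroblast cells were present. Where the transcripts came from was not tested. In bulk samples, fewer cells of a type and less RNA per cell cannot be told apart either.

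Most carriers did not pass the test, and neither did most of all tested genes. Of 38 tested members, 1 rose, 2 fell (SLC25A25 and SLC25A24) and 35 did not pass the test, which called a gene at a Benjamini-Hochberg adjusted p under 0.05 (limma on log2(value + 1)). The share called over all 12866 tested genes was 11.4% (4.01% higher and 7.4% lower), beside 7.89% of the 38 members. An unadjusted p under 0.05 was seen for 13 of the 38 members, a larger share than the 26.2% of all genes. The median log2 change, MAT1A minus control, was 0.03 over the members and 0.00 over all tested genes, and 24 members lay above 0 and 14 below. Of the 35 members not called, 26 had a 95% interval that stayed within 20% of no change in either direction. The 3 MAT1A libraries and the 3 control libraries did not overlap for 11 members, 8 higher and 3 lower, where 30.3% of all tested genes did not overlap (14.7% higher and 15.6% lower). Same-numbered libraries deviated together weakly (correlations of 0.25, 0.18 and 0.19), a pairing read from these same data and not from a label. With the replicate number as a block, 4 members were called higher and 5 lower (23.7% of the 38). That compares with 18% of all genes (7.57% higher and 10.4% lower). With log values adjusted library by library for exon length and GC content (the length and GC adjustment), 6 were called higher and 1 lower. That was 18.4% of the 38, against 17.1% of all genes (9.93% higher and 7.21% lower). The share of higher calls among all called genes was then 57.9% in place of 35.1%. Over all genes the median log2 change was 0.023 after that adjustment. With library medians set back afterwards, a choice made after the data were seen, 4 members were called higher and 2 lower (15.8% of the 38). Of all genes 14.8% were called (6.2% higher and 8.57% lower), and 42% of all calls were higher. Without control 1, the library richest in muscle transcripts, SLC25A25 was the 1 member called (6.14% of all genes), as it was with each library's muscle score as a covariate (3.31%). That score, a mean log2 level over 25 markers, was at least 2.124 in every control and at most 2.116 in every MAT1A library. The covariate therefore goes partly with the plasmid, and this fit cannot fully separate it from the plasmid. A call lost with it, here and below, does not show an effect of muscle transcripts. The other tools called 4 members with edgeR, 2 with DESeq2 and 4 with limma-voom. These were 10.5%, 5.26% and 10.5% of the 38, against 11.1%, 7.44% and 11% of all genes.

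**Figure D1:**
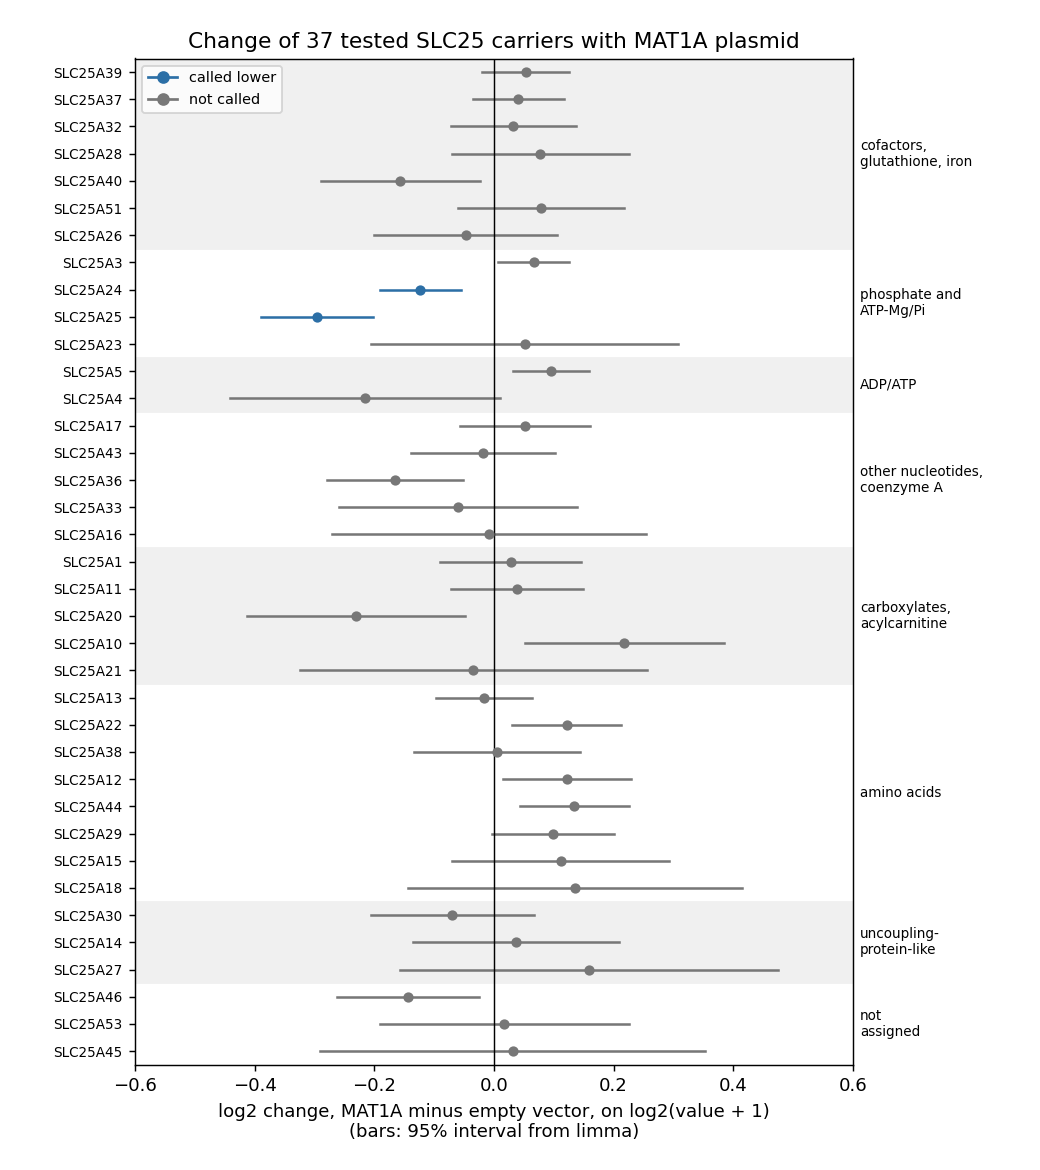
Log2 change of 37 tested carriers (x axis, MAT1A minus empty vector on the log2(value + 1) scale) with its 95% interval from limma, grouped by what the carriers transport. SLC25A25 and SLC25A24 (blue) were called lower; the intervals of SLC25A26 and most other members (grey) include 0.

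Levels spread over a much wider range than changes. Per kilobase of annotated exon and averaged over the 6 libraries, SLC25A5 stood highest at 375 scaled reads per kb, followed by SLC25A39 at 93.1 and SLC25A3 at 46.8. SLC25A1 at 26.8 and SLC25A13 at 25.0 came next, and the library values of these 2 genes overlapped. SLC25A42 was lowest at 0.196, and the median carrier stood at 5.95. SLC25A26 was 30th of the 39 at 2.34. The length used is that of all annotated exons of a gene together, so ranks and shares per kilobase depend on the annotation. Before division by length, SLC25A3 stood above SLC25A39. Their means were 426 and 334 scaled reads with the MAT1A plasmid and 407 and 322 in control. All 39 carriers together summed to between 2474 and 2517 scaled reads with the MAT1A plasmid and between 2429.8 and 2451 in control. The 3 most abundant of them gave between 53.3 and 54.7% of that sum with the MAT1A plasmid and between 51.5 and 52.9% in control.

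**Figure D2:**
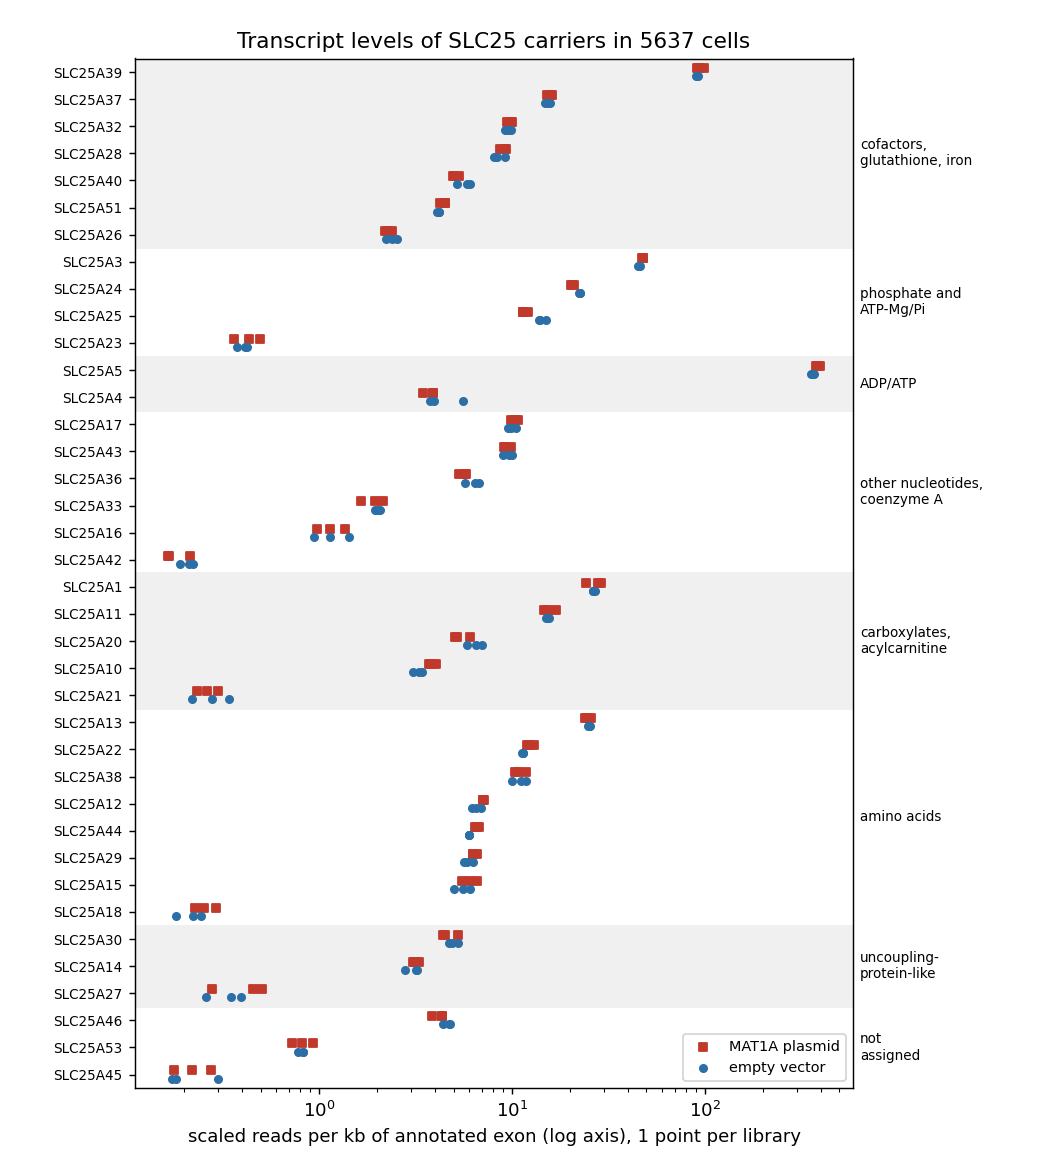
Scaled reads per kilobase of annotated exon (log axis) of 38 carriers, with 1 point per library (squares MAT1A plasmid, circles empty vector), grouped by what the carriers transport. SLC25A5 stands at 375 and SLC25A26 at 2.34 on average over the 6 libraries; in most rows the 2 groups lie close together.

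SLC25A26, on chromosome 3 at 66133610 to 66388116 of GRCh38 (plus strand), did not pass the test. It had 13.3, 14.1 and 12.9 scaled reads in MAT1A libraries 1, 2 and 3, against 14.8, 14.0 and 12.98 in control libraries 1, 2 and 3. The groups overlapped, with the highest value in control 1. The log2 change was -0.05 with a 95% interval of -0.20 to 0.11 (limma, adjusted p = 0.728; exact two-sided permutation p = 0.6, where 0.1 is the smallest possible). That interval runs from a fall of 13% to a rise of 7.59%, so a true change anywhere within those bounds remains possible. It is not a limit of detection. The lowest depth was 247 reads. SLC25A26 shares 907 bases of exon with LRIG1 on the opposite strand, whose mean was 19.3 with the MAT1A plasmid and 21.0 in control (log2 change -0.12, adjusted p = 0.216). The libraries do not mark strand, so reads from the shared bases could not be told apart.

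The enzymes on either side of this carrier gave a different picture. MAT2A, the S-adenosylmethionine synthetase of most tissues outside the liver, fell to 210.2 ± 10.7 scaled reads with the MAT1A plasmid, against 304 ± 5.22 in control (log2 change -0.53, limma adjusted p = 2.5e-08). AHCY, which breaks down S-adenosylhomocysteine, rose to 365 ± 14.2, against 336 ± 10.4 in control (log2 change 0.12, adjusted p = 0.0338). MAT2A was called under every alternative run, while AHCY was not called with the muscle covariate or without MAT1A 1, MAT1A 2, control 1 or control 3 (log2 changes between 0.092 and 0.13, adjusted p between 0.0689 and 0.243). Of 23 tested mitochondrial enzymes that use S-adenosylmethionine, 0 were called by limma, edgeR, DESeq2 or limma-voom, and the median log2 change was 0.03, where limma called 11.4% of all genes. In limma 5 of the 23 had an unadjusted p under 0.05, against 26.2% of all genes. With the replicate block, COQ3, a methyltransferase of ubiquinone synthesis, and METTL8, an RNA methyltransferase, were called higher (18% of all genes called). After the length and GC adjustment 4 were called higher, namely COQ3, METTL8, LIAS and CDK5RAP1 (17.1% of all genes), and with library medians set back COQ3 and METTL8. These 4 were named after their values were seen.

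Among the other carriers of cofactors, glutathione and iron, SLC25A39 and SLC25A40 are required for mitochondrial glutathione import. SLC25A39 had 330.5, 351 and 321 scaled reads in MAT1A libraries 1, 2 and 3, against 321, 327 and 317 in control libraries 1, 2 and 3 (log2 change 0.05, limma adjusted p = 0.351). SLC25A40 had 27.2, 25.4 and 25.3 with the MAT1A plasmid, against 31.1, 26.3 and 29.9 in control (log2 change -0.16, adjusted p = 0.124). Neither passed, and in both the groups overlapped. Per kilobase, SLC25A39 made up 94.9% of the pair with the MAT1A plasmid and 94.1% in control. The mitoferrins SLC25A37 and SLC25A28, which import iron, stood at means of 129 and 15.95 scaled reads with the MAT1A plasmid and 126 and 15.09 in control, and neither was called (adjusted p = 0.508 and 0.520). SLC25A32, a flavin and folate carrier, and SLC25A51, the NAD carrier, had log2 changes of 0.03 and 0.08. Nearly all 36-base windows of the longest coding transcript of SLC25A32 (98.0%) also occur in transcripts of other genes, most of them in the read-through transcript AC012213.5, so its reads are uncertain.

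The ATP-Mg/phosphate carriers, calcium-regulated proteins that set the adenine nucleotide content of the matrix, held both members that fell. SLC25A25, on chromosome 9 at 128068201 to 128109245 (plus strand), had 60.1, 56.4 and 56.2 scaled reads in MAT1A libraries 1, 2 and 3. In control libraries 1, 2 and 3 it had 69.6, 74.5 and 68.5. Every MAT1A library lay below every control library. The log2 change was -0.30 ± 0.04 (SE; limma adjusted p = 0.000279), with an interval of -23.7 to -13% on the linear scale. It stayed called under every alternative run, the muscle covariate included (log2 change -0.28, adjusted p = 0.0292), with log2 changes between -0.33 and -0.26 when single libraries were left out. SLC25A25 shares 665 bases of exon with SLC25A25-AS1 on the opposite strand, whose mean was 13.3 with the MAT1A plasmid and 11.03 in control (log2 change 0.24, adjusted p = 0.149).

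SLC25A24, on chromosome 1 at 108134036 to 108200849 (minus strand), had 143, 137 and 139 scaled reads in MAT1A libraries 1, 2 and 3, against 150.3, 153 and 153 in control libraries 1, 2 and 3. The groups did not overlap, and the values within each group lay close together. The log2 change was -0.12 ± 0.03 (SE; limma adjusted p = 0.0201). The call was lost without control 1, control 2 or control 3 (adjusted p between 0.0582 and 0.0932) and with the muscle covariate (0.226), although the log2 change was then -0.131, -0.118, -0.12 and -0.126. After the length and GC adjustment it was smaller, at -0.062 (adjusted p = 0.154; -0.081 and 0.0609 with library medians set back). SLC25A23, the third listed carrier of this kind, was scarce at means of 2.10 with the MAT1A plasmid and 1.98 in control and was not called. The per-kilobase share of SLC25A25 in the pair with SLC25A24 was 36.5, 36.0 and 35.5% in MAT1A libraries 1, 2 and 3, against 38.7, 39.9 and 37.99% in control libraries 1, 2 and 3. These shares did not overlap. Over 7 pairs of related carriers compared in this way, the exact permutation p was 0.1 for this pair, the smallest the design allows, and 0.35 after Benjamini-Hochberg adjustment. The pair of SLC25A4 and SLC25A5 gave the same p-values in this test.

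The cAMP response element, a palindrome bound by CREB, was looked for because SLC25A25 showed the largest change in the family. Promoter sequences of 34 of the 39 carriers were at hand from RefSeq (GRCh38.p14), and the 250 bases before each start were searched on both strands for TGACGTCA. It occurred in 3 of the 34 (8.82%) and in 2.91% of 10043 tested genes. SLC25A25, whose change prompted the search, is among the 3, so the share of the carriers can be raised by that choice. Whether CREB acts on these genes was not tested. The 3 windows are written out here because they hold the element, 5′ to 3′ on the plus strand, with the element in capitals. They lie at chr9:128098296-128098325, chr1:9539405-9539434 and chr3:140941708-140941737.
SLC25A25: ggagggagcggTGACGTCAgccctgatctt
SLC25A33: tcgcgcgcccgTGACGTCAcggtccggccc
SLC25A36: tgcagagtgcgTGACGTCAcgacgctcaca
The element begins 200 bases before the start used by RefSeq in SLC25A25, 49 in SLC25A33 and 117 in SLC25A36. In SLC25A25 that start lies inside the annotated gene, downstream of its first base at 128068201, and 203 of the 250 bases searched are annotated exon of SLC25A25 itself. In SLC25A33 and SLC25A36, 0 and 6 of the 250 bases are exon. Of the 3 genes, SLC25A25 fell, while SLC25A33 and SLC25A36 did not pass (log2 changes -0.06 and -0.17). In the same windows the NRF1 core GCATGCGC was found in 0 of 34 carriers and 4.75% of tested genes, and the ETS site CCGGAAG in 20.6% and 16.4%. The CCAAT box was found in 47.1% of the carriers and 35.2% of tested genes, and the E-box CACGTG in 17.6% and 8.74%. A match is a description of the letters and not of binding.

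SLC25A3, the phosphate carrier that supplies ATP synthase and also brings copper to cytochrome oxidase, was the third most abundant carrier per kilobase. It had 425, 429 and 423 scaled reads in MAT1A libraries 1, 2 and 3, against 408, 409 and 402 in control libraries 1, 2 and 3. The groups did not overlap, but the log2 change of 0.07 did not pass (limma adjusted p = 0.140). It passed after the length and GC adjustment (log2 change 0.10, adjusted p = 0.0152; 0.0466 with library medians set back).

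The ADP/ATP carriers exchange mitochondrial ATP for cytosolic ADP and were represented by SLC25A5, the form of proliferating cells, and SLC25A4, the form of heart and skeletal muscle. SLC25A5, on chromosome X at 119468400 to 119471319 (plus strand), had 570.2, 597 and 576 scaled reads in MAT1A libraries 1, 2 and 3, against 532, 555 and 545 in control libraries 1, 2 and 3. The groups did not overlap. The log2 change was 0.10 ± 0.03 (SE) and just missed the threshold (limma adjusted p = 0.0510). It passed with the replicate block (adjusted p = 0.00475), with limma-voom (0.0480), with a filter of at least 5 scaled reads (0.0468, a setting that called 12.8% of all genes) and after the length and GC adjustment (0.00427; 0.0143 with library medians set back). Of its 36-base windows, 31.6% also occur in transcripts of other genes, among them 7 pseudogenes of SLC25A5, so its level depends on how such reads were counted.

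SLC25A4 had 18.9, 18.9 and 16.8 scaled reads in MAT1A libraries 1, 2 and 3, against 27.3, 19.2 and 18.3 in control libraries 1, 2 and 3. Control 1 stood alone, and it was also the library with the highest sum of skeletal muscle markers, at 588 against no more than 185 elsewhere. The log2 change of -0.22 did not pass (limma adjusted p = 0.212). It was -0.04 without control 1, and 0.13 with the muscle covariate (adjusted p = 0.552). Without any other single library it lay between -0.319 and -0.162 and was not called. With the replicate block the limma adjusted p was 0.0506. With block and length and GC adjustment SLC25A4 was called lower (log2 change -0.204, adjusted p = 0.0409). It was also called with library medians then set back (-0.224, adjusted p = 0.0335). Per kilobase, SLC25A4 made up 0.960% of the sum of SLC25A4 and SLC25A5 with the MAT1A plasmid and 1.22% in control. ADP/ATP carriers that were not listed are outside this sum, so it is not a share of all of them. The shares did not overlap between the groups (exact permutation p = 0.1, and 0.35 adjusted over the 7 pairs).

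**Figure D3:**
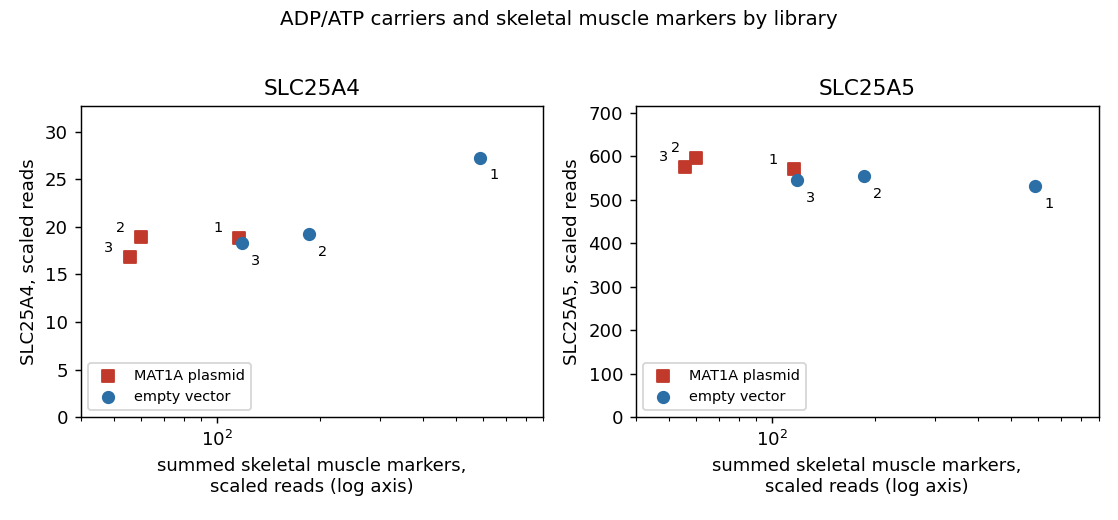
Scaled reads of the ADP/ATP carrier genes SLC25A4 and SLC25A5 (y axes from 0) against the summed skeletal muscle markers (log axis), with 1 point per library, numbered by replicate (squares MAT1A plasmid, circles empty vector). For SLC25A4, control 1 lies at 27.3 with a marker sum of 588, and the other 5 libraries lie between 16.8 and 19.2; for SLC25A5, control 1 is the lowest at 532.

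The carriers of other nucleotides and coenzyme A were not called in either direction (0 of 5 tested by limma, edgeR and DESeq2, with 1 at an unadjusted p under 0.05 in each). These tools called 11.4%, 11.1% and 7.44% of all genes. SLC25A36, a pyrimidine nucleotide carrier chosen after its values were seen, had 59.0, 54.7 and 59.4 scaled reads in MAT1A libraries 1, 2 and 3, against 69.4, 59.1 and 66.3 in control libraries 1, 2 and 3. MAT1A 3 lay slightly above control 2, and the log2 change of -0.17 missed the threshold (limma adjusted p = 0.0587; 0.00521 with the replicate block). SLC25A17, a peroxisomal carrier of nucleotide cofactors, stood at means of 41.4 with the MAT1A plasmid and 39.9 in control. SLC25A43, counted in this group although its substrate is not established, stood at 29.4 with the MAT1A plasmid and 29.8 in control. SLC25A33, also a pyrimidine nucleotide carrier, and SLC25A16 had log2 changes of -0.06 and -0.01. SLC25A42, a coenzyme A carrier, was the 1 member left out by the filter, with values between 0.746 and 1.011.

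The carboxylate carriers link the citric acid cycle to cytosolic synthesis. SLC25A1, which exports citrate for lipid synthesis, had 59.0, 61.0 and 50.8 scaled reads in MAT1A libraries 1, 2 and 3, against 56.4, 55.0 and 55.4 in control libraries 1, 2 and 3. MAT1A 3 lay below all control libraries and the other 2 above them. SLC25A11, the oxoglutarate carrier of the malate-aspartate shuttle, stood at means of 41.9 with the MAT1A plasmid and 40.7 in control. Neither passed (limma adjusted p = 0.796 and 0.686). SLC25A10, the dicarboxylate carrier, chosen after its values were seen, had 9.97, 10.6 and 9.79 with the MAT1A plasmid, against 8.67, 8.94 and 8.11 in control. Its groups did not overlap, yet the log2 change of 0.22 did not pass (adjusted p = 0.0855), and 60.3% of its windows are shared with AC139530.2. SLC25A20, the carnitine-acylcarnitine carrier of fatty acid oxidation, had a log2 change of -0.23 (adjusted p = 0.0950; 0.0364 with the replicate block).

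Of the 8 amino acid carriers tested, 7 had a log2 change above 0, as did 51.5% of all tested genes. By limma and DESeq2 0 of the 8 were called, against 11.4% and 7.44% of all genes. In limma 3 of the 8 had an unadjusted p under 0.05 (26.2% of all genes), and in DESeq2 2 (2351 of 12866 genes). The median log2 change of the 8 was 0.12. SLC25A44, which imports branched-chain amino acids and was chosen after its values were seen, had 48.2, 47.1 and 49.4 scaled reads in MAT1A libraries 1, 2 and 3, against 44.1, 43.6 and 43.8 in control libraries 1, 2 and 3. Its groups did not overlap, and the log2 change of 0.13 just missed the threshold (limma adjusted p = 0.0531). It passed with edgeR's quasi-likelihood test (adjusted p = 0.0493) and with the replicate block (0.0330). After the length and GC adjustment SLC25A44, SLC25A22 and SLC25A12 were called higher, 3 of the 8 amino acid carriers (adjusted p = 0.0216, 0.0474 and 0.0426). That adjustment called 9.93% of all genes higher and moved their median log2 change to 0.023. With library medians set back, SLC25A44 was the 1 of the 8 called (adjusted p = 0.0497, against 0.106 for SLC25A22 and 0.0881 for SLC25A12), where 6.2% of all genes were called higher. SLC25A22, a glutamate carrier, had 55.9, 60.6 and 57.0 with the MAT1A plasmid, against 52.4, 53.3 and 53.5 in control (log2 change 0.12, limma adjusted p = 0.0790; 0.0417 with the replicate block).

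The aspartate-glutamate carriers of the malate-aspartate shuttle differed in level. SLC25A13 (citrin) had 91.5, 89.3 and 96.2 scaled reads in MAT1A libraries 1, 2 and 3, against 91.8, 94.95 and 93.3 in control libraries 1, 2 and 3 (log2 change -0.02, limma adjusted p = 0.828). SLC25A12 (aralar) had 36.7, 36.8 and 37.4 with the MAT1A plasmid, against 35.8, 32.3 and 33.7 in control (log2 change 0.12, adjusted p = 0.133). The groups overlapped for SLC25A13 and stood apart for SLC25A12. Per kilobase, SLC25A12 made up 22.3% of the pair with the MAT1A plasmid and 20.7% in control, a difference with an exact permutation p of 0.2 (0.35 adjusted over the 7 pairs). The remaining amino acid carriers were SLC25A38 (glycine), SLC25A29 (basic amino acids), SLC25A15 (ornithine) and the scarce glutamate carrier SLC25A18, with log2 changes of 0.00, 0.10, 0.11 and 0.14.

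**Figure D4:**
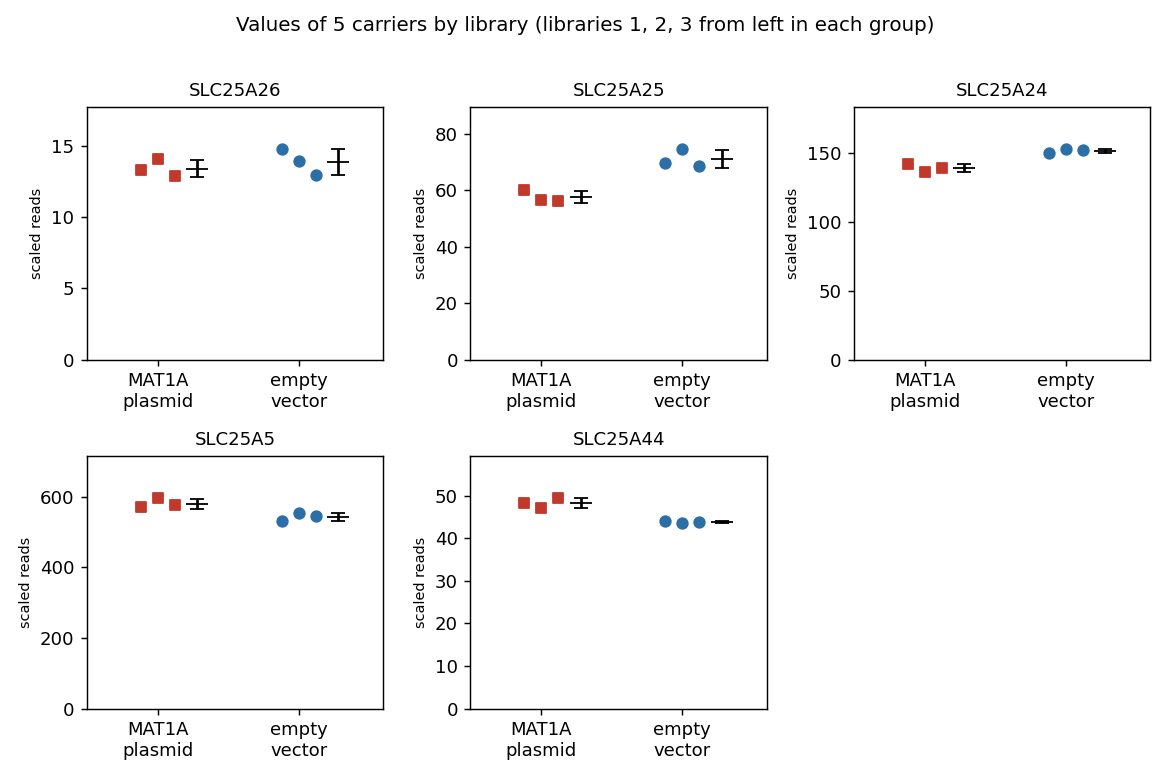
Scaled reads (linear axes from 0) of 5 carriers in each library, with mean ± SD beside the points (n = 3 each; squares MAT1A plasmid, circles empty vector). SLC25A25 and SLC25A24 lie lower with the MAT1A plasmid and SLC25A5 and SLC25A44 higher without overlap, the last 2 short of the test's threshold; SLC25A26 overlaps.

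Carriers related to the uncoupling proteins were not called (0 of 3 by limma, edgeR and DESeq2, with 0 at an unadjusted p under 0.05 in each). SLC25A30 stood at means of 32.1 scaled reads with the MAT1A plasmid and 33.7 in control, and SLC25A14 at 9.53 and 9.28. SLC25A27 was scarce, at means of 1.36 and 1.10. Of the carriers with no substrate assigned here, SLC25A46, an outer-membrane protein of mitochondrial dynamics, had 36.1, 32.0 and 36.2 in MAT1A libraries 1, 2 and 3, against 39.7, 36.5 and 39.1 in control libraries 1, 2 and 3. Its groups did not overlap, and the log2 change of -0.14 did not pass (limma adjusted p = 0.112; 0.0375 with the replicate block). It was -0.032 after the length and GC adjustment. SLC25A53 and SLC25A45 had log2 changes of 0.02 and 0.03, and SLC25A21, an oxoadipate carrier at about 1 scaled read, -0.03.

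The change of a carrier went with its base composition. Across the 38 tested members, Spearman's correlation between the log2 change and the GC content of the longest transcript was 0.44, and across 12807 tested genes with both values it was 0.23. These are descriptions across genes that share the same 6 libraries. GC content ran from 32.1% in SLC25A46 to 65.6% in SLC25A1.

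Other genes of mitochondrial transport were also mostly not called, and those called were higher. Of 15 tested genes of the import route for carriers, 3 rose and 0 fell, with a median log2 change of 0.08, where 4.01% of all genes were called higher and 7.4% lower. TOMM7 and TOMM5, small subunits of the outer-membrane import pore, rose by log2 changes of 0.14 and 0.27 (limma adjusted p = 0.0187 and 0.0235). TOMM5 reached 16.1 ± 0.49 scaled reads with the MAT1A plasmid, against 13.2 ± 1.14 in control. Of 14 tested genes for the pyruvate carrier, porins and calcium uniporter, 3 rose, among them the porin genes VDAC3 (log2 change 0.13) and VDAC1 (0.10). None of these 6 calls held without control 1, without control 3 or with the muscle covariate. DESeq2 called 1 of the 15 (TOMM7) and 0 of the 14, against 7.44% of all genes. The 14 gave 0 calls without control 2 (8.54% of all genes). They gave 1 without each MAT1A library (between 8.15 and 12.9% of all genes). With the length and GC adjustment 6 of the 15 and 3 of the 14 were called higher, where 9.93% of all genes were called higher. With library medians set back it was 5 of the 15 and 3 of the 14 (6.2% of all genes). With library size counted without MAT1A reads 0 of the 14 and 2 of the 15 were called (11.3% of all genes). UCP2, UCP3, MTCH1 and MTCH2, relatives of the carriers under other symbols, gave 0 calls by limma, edgeR and DESeq2 (1 at an unadjusted p under 0.05 in limma).

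Among 10 tested regulators of mitochondrial gene expression, 2 rose and 1 fell, with a median log2 change of -0.06, where 11.4% of all genes were called. ESRRA, a nuclear receptor, rose to 144 ± 5.82 scaled reads with the MAT1A plasmid, against 130.1 ± 0.42 in control (log2 change 0.14, limma adjusted p = 0.0154). It was not called with the muscle covariate or without MAT1A 1, control 1, control 2 or control 3, with log2 changes that stayed between 0.139 and 0.144 (adjusted p between 0.0510 and 0.201). Its coactivator PPARGC1B rose to 24.6 ± 2.79, against 20.4 ± 1.70 in control (log2 change 0.25, adjusted p = 0.0432). That call was lost with DESeq2 (adjusted p = 0.0627), with library size counted without MAT1A reads (0.0594), with the muscle covariate (0.193) and without MAT1A 1, MAT1A 3, control 2 or control 3 (between 0.0584 and 0.163; log2 change 0.167 without MAT1A 3). GABPB1, a subunit of the ETS-family factor NRF2/GABP, fell to 41.4 ± 1.33, against 48.3 ± 1.79 in control (log2 change -0.22, adjusted p = 0.00547), and of the alternatives at this threshold it lost its call with the muscle covariate alone (log2 change -0.183, adjusted p = 0.201).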

How the data were processed

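Per the submitters' processing notes, STAR 2.6.0c, featureCounts and edgeR were used with the hg38 build; settings and annotation: not given in the sources used here. In all, 13271 genes were listed. The authors deposited a signal, reads relative to a scaled library size. Every value was a whole multiple of 1 step per column (100% within 0.001 reads), taken as 1 read; 3 reads equal between 0.140 and 0.172 on this scale, which covers counting error only. The test was limma 3.58.1 (R 4.3.3) with an intensity trend on log2(value + 1), over 12866 genes with at least 1 in at least 3 libraries, with Benjamini-Hochberg adjustment over all of them. Fold changes on this scale understate those of low genes. Exon lengths, positions and overlaps came from GENCODE release 29 on GRCh38 (13211 symbols matched), GC content from the longest transcript. Count tools (edgeR 4.0.16, DESeq2 1.42.0, limma-voom) ran on recovered reads as alternatives and were tested on simulated data.

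Libraries of a group differed by more than sampling noise (chi-square per degree of freedom between 1.87 and 4.46). Deviations from the group means correlated between same-numbered libraries at 0.25, 0.18 and 0.19, each over 0.1, so the numbers were taken to pair the libraries; this comes from the data, not from a label. The members and lists were chosen with earlier results of these data known. Named genes were SLC25A26, every called carrier, the 2 carriers of each role with the highest level per kilobase, MAT1A, MAT2A, AHCY and up to 2 called genes per direction of each other list; others were picked with their values in view. SLC25 carriers with no row in the table were not analysed here, and 1 carrier that counts among the members is not reported here by name.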

Additional observations from a re-analysis of the deposited data

How the results depend on the processing

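The count of called carriers moved from 3 to 5 with a filter of at least 5, to 9 with the replicate block, to 7 after the length and GC adjustment (9 if blocked too) and to 6 (4 higher and 2 lower) and 9 when library medians were then set back, a choice made after the data were seen. It was 1 at adjusted p under 0.01 and with the muscle covariate, and between 1 and 4 when single libraries were left out. Over all genes the count of 1468 was 957 with DESeq2, 663 at adjusted p under 0.01, 2310 with the replicate block, 2204 after the length and GC adjustment, 2829 with block and adjustment, 2492 with library medians also set back, 426 with the muscle covariate, and between 749 and 1656 without single libraries (749 without control 3, 782 without control 1).

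The log2 change of SLC25A26 was 0.042 with the muscle covariate and between -0.09 and -0.0052 without single libraries, never called. Under that covariate SLC25A4 was at 0.13, SLC25A17 at -0.013 and SLC25A43 at 0.032. The muscle score lay higher in every control library than in every MAT1A library, so this fit cannot fully separate the score from the plasmid. SLC25A13 was at 0.0017 after the length and GC adjustment, with or without the block. Without single libraries the ranges that include a change of sign were -0.023 to 0.107 for SLC25A1, -0.017 to 0.0808 for SLC25A11, -0.046 to 0.0068 for SLC25A13, -0.0226 to 0.0709 for SLC25A14, -0.0589 to 0.0137 for SLC25A43 and -0.0624 to 0.0921 for SLC25A53. The cause of these changes was not tested.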
